A study of Arabidopsis thaliana with 4 samples.

Results

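The sites described here are the ampDAP-seq peaks listed for a mutant form of LEAFY (LFY), LFY K249R, with UNUSUAL FLORAL ORGANS (UFO) and not listed for it without UFO. In ampDAP-seq, tagged protein is mixed in vitro with PCR-amplified genomic DNA and purified, and the DNA that comes with it is sequenced. The preparations were 5xmyc-tagged LFY K249R with the ASK1-UFO-3xFLAG complex (LFY K249R + UFO), 5xmyc-tagged LFY with the same complex (LFY + UFO) and 5xmyc-tagged LFY K249R alone. LFY proteins came from the TnT in vitro transcription and translation system and the ASK1-UFO complex was recombinant, per the labels. All preparations shared one kind of DNA, from wild-type Col-0 Arabidopsis thaliana seedlings 2 weeks old. An input DNA sample without tagged protein completes the series. No peak list of it, and no list for LFY alone, was analysed here.

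The LFY K249R + UFO list held 8577 peaks, the LFY + UFO list 18957 and the LFY K249R list 9956. All intervals are 400 bp wide and none carries a height or score. The members were selected on peak position: a LFY K249R + UFO peak was taken as gained when its centre lay more than 200 bp from every LFY K249R centre on its chromosome. This gave 773 gained peaks of 8577, or 9.01% of the list. The other 7804 peaks of that list, with a LFY K249R centre at 200 bp or less, are called retained. Of the 9956 LFY K249R peaks, the 2152 with no LFY K249R + UFO centre at that distance are called lost. Lost peaks were thus a larger part of their list than gained peaks were of theirs. Of the 18957 LFY + UFO peaks, the 10088 far from the centres of both mutant lists are called LFY + UFO only. Replicates were merged before deposit (2 for each mutant list, 3 for LFY + UFO), so a gained peak is one that passed in both replicates with UFO and not in both without it, and its replicate spread cannot be measured. Intervals given below are exact 95% binomial intervals for a share and Newcombe 95% intervals for a difference of shares. They treat peaks as independent and cover counting error only, and read depth is unknown.

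LFY is a plant-specific transcription factor that turns a shoot meristem into a flower and activates floral organ identity genes. It binds DNA as a dimer at pseudo-palindromic sites. UFO belongs to the F-box proteins, which recognise substrates for SCF ubiquitin ligases and contact SKP1-like adaptors such as ASK1. UFO acts with LFY on the petal and stamen programme, of which APETALA3 is the classic target. K249R replaces a lysine of LFY by an arginine.

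Few peaks lay near the limit. Of the 8577 LFY K249R + UFO peaks, 7188 lay 0 to 20 bp from a LFY K249R centre and 45 lay more than 100 and up to 300 bp away. The gained peaks nearest to the limit were 211 bp from a LFY K249R centre, at chr1:5650603-5651002 and chr1:24302727-24303126, and the next was at 218 bp, at chr3:16467386-16467785. On the other side of the limit, 2 retained peaks lay at 200 bp, at chr2:13370539-13370938 and chr4:362864-363263, and the next was at 181 bp, at chr3:23015372-23015771.

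Most gained peaks were not shoulders of a LFY K249R peak. Their median distance to the nearest LFY K249R centre was 3821 bp (quartiles 1476 and 7658 bp), and the farthest member lay 41105 bp away. The interval of 50 members overlapped a LFY K249R interval. For 43 of these 50 the LFY K249R peak beside them was itself retained, so the mutant had a second peak next to the first one with UFO. For the other 7 the neighbouring LFY K249R peak was lost, so the mutant had a peak at one position with UFO and at another, more than 200 bp away, without it. Gained peaks had a lost LFY K249R peak within 1000 bp in 2.98% of cases (1.90% to 4.43%), against 3.01% (2.64% to 3.42%) for retained peaks. Within 5000 bp the shares were 15.8% (13.3% to 18.6%) and 16.9% (16.0% to 17.7%). The intervals of gained and retained peaks overlapped at both distances.

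**Figure D1:**
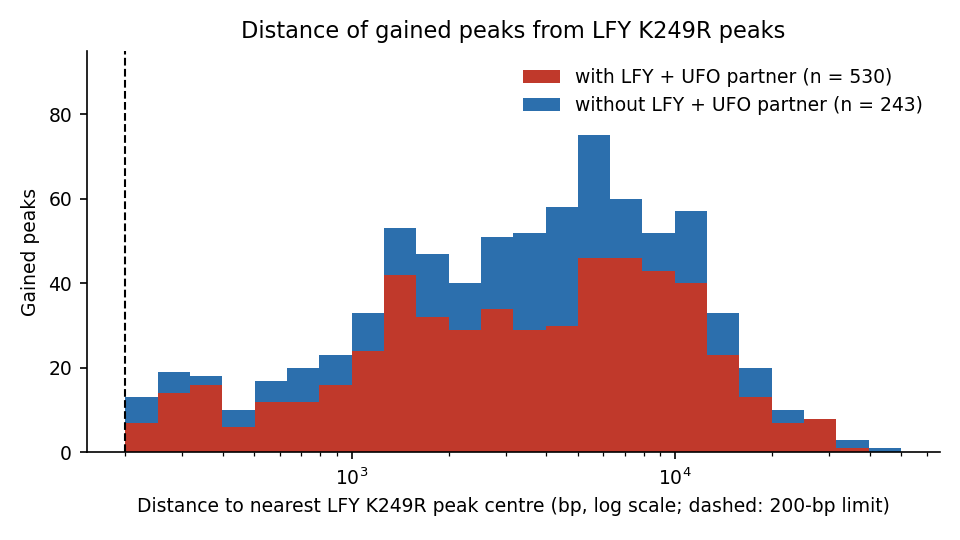
Histogram of the distance from each of the 773 gained peaks to the nearest LFY K249R centre in bp on a log axis, stacked by presence in the LFY + UFO list at 200 bp. The dashed line is the 200-bp limit of the rule; the median is 3821 bp and members of both kinds occur over most of the range.

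The LFY + UFO list, which the rule did not use, held a peak at 530 of the 773 gained sites, or 68.6% (65.2% to 71.8%), and 243 gained sites had none. Across the whole LFY K249R + UFO list the share was 88.3%, and among retained peaks it was 90.3% (89.6% to 90.9%). Gained minus retained was -21.7 percentage points (-25.1 to -18.5). Lost peaks, listed for the mutant only without UFO, had a LFY + UFO partner in 59.2% of cases (57.0% to 61.2%), and gained minus lost was 9.41 points (5.47 to 13.2). By the rule, retained peaks were in both mutant lists, while gained and lost peaks were each in a single mutant list. The part of this selection in the lower shares of gained and lost peaks was not tested. Presence in LFY + UFO had overlapping intervals at all distances from LFY K249R peaks. It was 74.0% for the 50 members that overlapped a LFY K249R interval (59.7% to 85.4%), 61.0% for the 200 members 2000 to 5000 bp away (53.9% to 67.8%) and 69.7% for the 132 members more than 10000 bp away (61.1% to 77.4%). In the other classes it was 65.7% (n = 70, up to 1000 bp), 73.7% (n = 133, 1000 to 2000 bp) and 71.8% (n = 188, 5000 to 10000 bp). Overlap of single intervals does not exclude a difference between classes, and such differences were not tested.

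Gained sites without a LFY + UFO partner were mostly well away from any LFY + UFO peak. Their median distance to the nearest LFY + UFO centre was 2178 bp (quartiles 958.5 and 3953.5 bp). Only 17 of the 243 overlapped a LFY + UFO interval without reaching the 200-bp limit, 48 others lay up to 1000 bp away, 138 lay 1000 to 5000 bp away and 40 lay more than 5000 bp away.

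Where gained sites were shared with LFY + UFO, the peak centres matched less tightly than at retained sites. The median offset between a gained centre and its LFY + UFO partner was 20 bp (order-statistic 95% interval 18 to 22 bp, n = 530). It was 9 bp at retained sites (n = 7045) and 12 bp at lost sites (11 to 13 bp, n = 1273). Offsets above 50 bp occurred at 12.8% of shared gained sites (10.1% to 16.0%), against 4.68% of shared retained sites (4.20% to 5.20%) and 6.68% of shared lost sites (5.37% to 8.19%). The wider offset was seen at every distance class from LFY K249R: the median was 22 bp for shared members up to 1000 bp away, 20 bp from 1000 to 5000 bp and 18 bp beyond 5000 bp. It was also seen inside protein-coding genes (median 19 bp) and outside them (21.5 bp). Peak height, which affects how precisely a centre is placed, is not given in the lists, and its part in the offset was not tested.

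**Figure D2:**
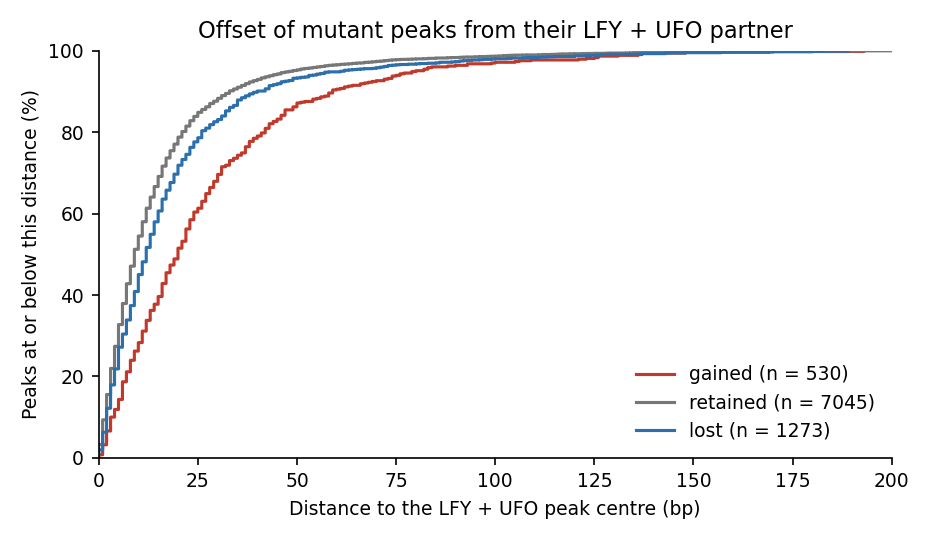
Cumulative share of peaks (%) against the distance in bp between a mutant peak centre and its LFY + UFO partner, for gained, retained and lost peaks that have one. The gained curve lies below the other 2 over most of the range, with medians of 20 bp for gained, 9 bp for retained and 12 bp for lost peaks.

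The gained sites fell into 2 sets that differed in where they lay relative to genes. Gene positions came from the RefSeq annotation of TAIR10.1, and a peak was placed by its centre. Of the 530 gained peaks with a LFY + UFO partner, 338 lay inside a protein-coding gene, or 63.8% (59.5% to 67.9%). Of the 243 without a partner, 92 did, or 37.9% (31.7% to 44.3%). The difference was 25.9 percentage points (18.4 to 33.0), and it had the same direction on 5 of 5 chromosomes, where the share was 56.2% to 68.1% with a partner and 32.4% to 45.5% without one. For scale, protein-coding genes covered 54.1% of the chromosome positions up to the last peak, and 54.1% of all LFY K249R + UFO peaks were centred in one. Gained sites shared with LFY + UFO thus lay in genes more often than positions in general, and gained sites of LFY K249R + UFO alone less often.

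The same contrast was present in the other mutant peaks, so it was not particular to gained sites. Among retained peaks the in-gene share was 56.5% with a LFY + UFO partner and 29.9% without, a difference of 26.6 points (23.1 to 30.0). Among lost peaks it was 63.6% with a partner and 38.9% without, a difference of 24.7 points (20.5 to 28.8). Gained peaks were closest to lost peaks in this respect: with a partner they differed by 0.14 points (-4.78 to 4.94), and without one by -1.05 points (-7.76 to 5.95). Against retained peaks, gained peaks lay inside genes more often both with a partner (7.22 points, 2.89 to 11.4) and without one (7.95 points, 1.20 to 14.9). Taken over all members, 55.6% of gained peaks (52.0% to 59.2%) and 54.0% of retained peaks were in a protein-coding gene, a difference of 1.67 points whose interval included 0 (-2.02 to 5.31). A partner was lacking at 31.4% of gained and 9.73% of retained peaks, so the pooled shares mix the 2 sets in different proportions. LFY + UFO only peaks lay in genes more often still, at 70.3% (69.4% to 71.2%), and gained peaks with a partner differed from them by -6.55 points (-10.8 to -2.47).

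**Figure D3:**
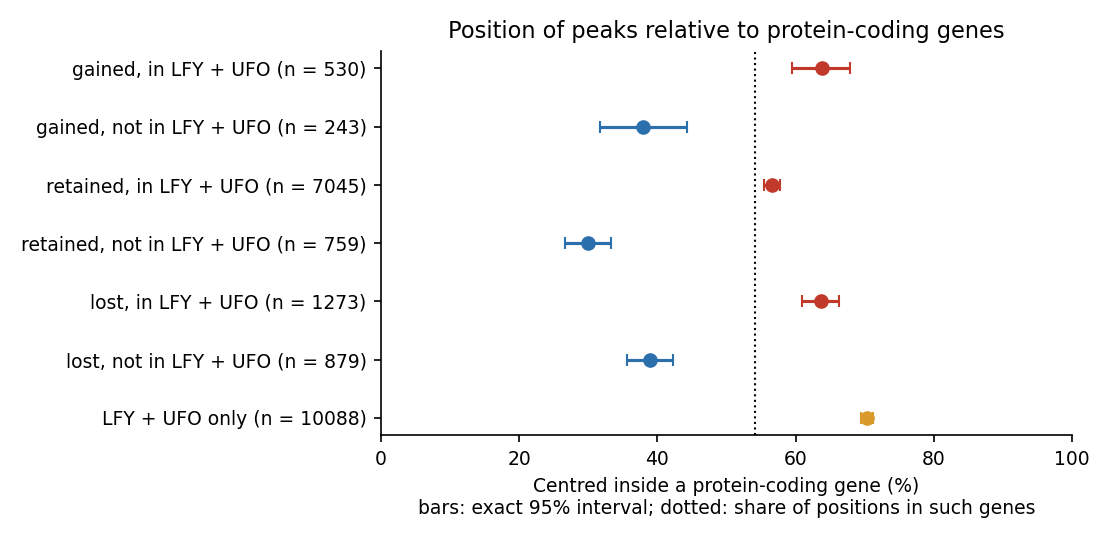
Share of peaks (%) centred inside a protein-coding gene, with exact 95% intervals, for gained, retained and lost peaks with and without a LFY + UFO partner and for LFY + UFO only peaks; the dotted line marks the 54.1% of chromosome positions inside such genes. In each of the 3 mutant classes the point with a partner lies above the line and the point without one below it. The line counts all chromosome positions and is not a background local to the peaks.

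Read the other way round, the place of a gained site went with its presence in LFY + UFO. Inside protein-coding genes 338 of 430 gained peaks had a partner, or 78.6% (74.4% to 82.4%). Outside them 192 of 343 did, or 56.0% (50.5% to 61.3%), a difference of 22.6 points (16.0 to 29.0). For lost peaks the shares were 70.3% inside and 46.3% outside, a difference of 24.0 points (19.9 to 28.0) whose interval overlapped that of gained peaks. For retained peaks they were 94.6% and 85.2%, a difference of 9.42 points (8.08 to 10.8). With a partner at 90.3% of all retained peaks, a difference in points had less room there.

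**Figure D4:**
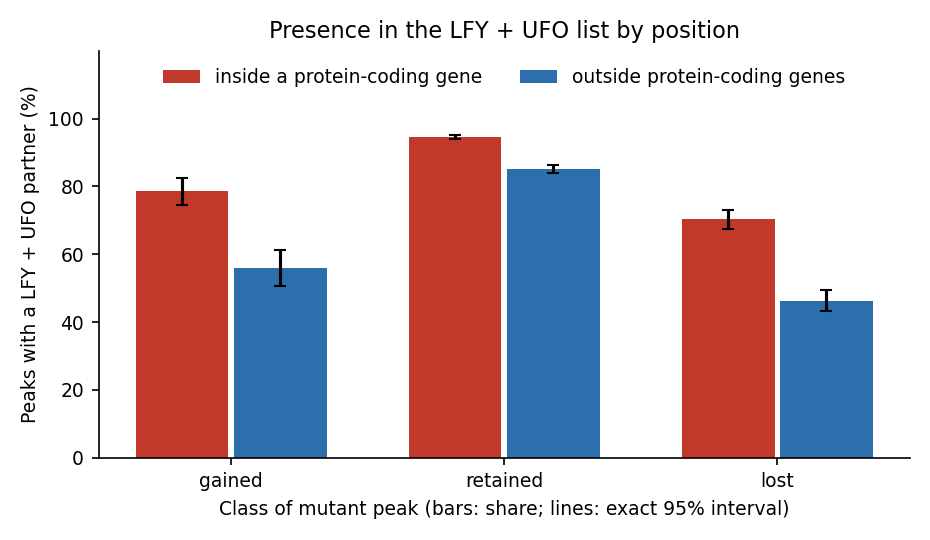
Bars give the share (%) of gained, retained and lost peaks that have a LFY + UFO partner, inside and outside protein-coding genes, with exact 95% intervals. For gained peaks the bars stand at 78.6% inside and 56.0% outside.

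The low in-gene share of gained peaks without a partner was local, while the higher share of those with a partner was not shown to be. When all peak centres were displaced by 5 kb or more in either direction, the in-gene share of gained peaks with a partner lay between 57.5% and 60.6%, and that of gained peaks without one between 56.4% and 63.0%. At their true positions the shares were 63.8% and 37.9%, and the 60.6% lies inside the interval of the first. At displacements of 200 bp to either side, gained peaks with a partner stood at 65.1% and 66.0%, above their value at 0. Gained peaks outside protein-coding genes were near them all the same, with a median distance to the nearest gene of 713 bp (quartiles 248.8 and 2233 bp, n = 192) with a partner and 891 bp (342 and 1927 bp, n = 151) without one. Inside genes the centres lay a median of 786 bp from the nearer gene end (n = 338) with a partner and 636.5 bp (n = 92) without one. The quartile ranges of these distances overlapped widely. The gene table gives no strand and no exons, so promoters, exons and introns were not told apart.

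**Figure D5:**
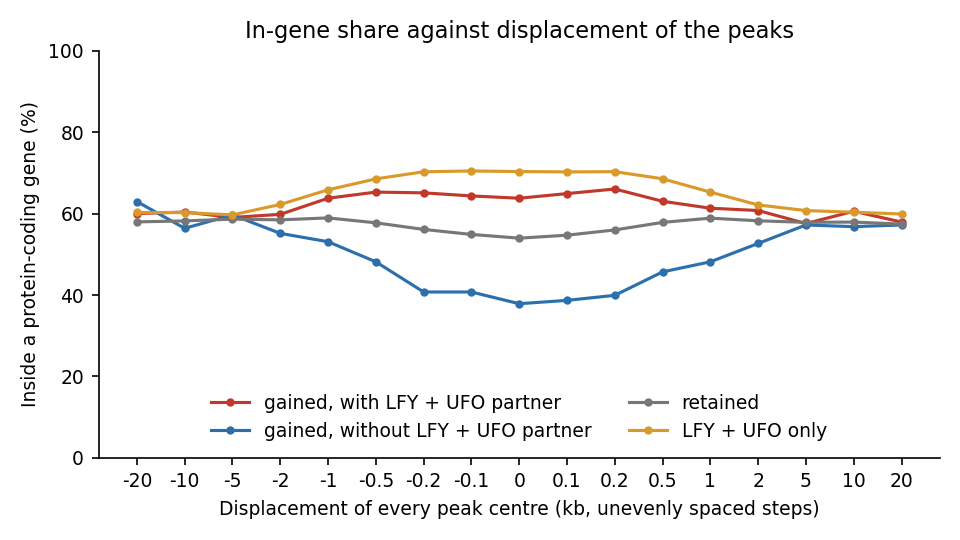
Share of peaks (%) centred inside a protein-coding gene after moving every centre by the given distance in kb (steps not evenly spaced), for gained peaks with and without a LFY + UFO partner, retained peaks and LFY + UFO only peaks. The lines differ most around 0 and come together at 5 kb and beyond; gained peaks without a partner dip to 37.9% at 0.

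Pseudogenes, which in this annotation are listed apart from protein-coding genes, held 29 of the 530 gained peaks with a LFY + UFO partner, or 5.47% (3.70% to 7.76%), and 4 of the 243 without one, or 1.65% (0.450% to 4.16%). The difference was 3.83 points (0.83 to 6.31) and rests on the 4 peaks without a partner. The shares with and without a partner were 3.92% and 4.22% for retained peaks and 4.56% and 4.55% for lost peaks. Over all members, 4.27% of gained and 3.95% of retained peaks lay in a pseudogene, a difference of 0.32 points (-0.97 to 2.04). Outside every annotated gene of any kind lay 30.0% (26.1% to 34.1%) of gained peaks with a partner and 59.7% (53.2% to 65.9%) of those without.

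Gained peaks lay on every chromosome, and few of them lay next to another gained peak. Chromosomes 1 to 5 held 192, 126, 144, 133 and 178 of them, which was 8.70% to 9.86% of the LFY K249R + UFO peaks on each, with overlapping intervals. At least 1 gained peak lay in 119 of the 121 bins of 1 Mb that held any LFY K249R + UFO peak. The median distance between neighbouring gained peaks was 103 kb, and 6 of the 773 members had another gained peak within 1000 bp. These values depend on the number of members, and no background was computed for them. Any other LFY K249R + UFO peak within 1000 bp was found for 12.9% of gained peaks (10.7% to 15.5%) and 12.6% of retained peaks (11.9% to 13.3%), a difference of 0.35 points (-1.96 to 3.0). Presence in LFY + UFO ran from 63.0% on chromosome 1 (55.8% to 69.9%) to 72.5% on chromosome 5 (65.3% to 78.9%), with overlapping intervals.

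At the level of genes, 1594 of 27444 protein-coding genes, or 5.81%, had a gained peak in the gene or within 3 kb of either end. Of these, 748 had no LFY K249R peak in the same window, or 46.9% (44.5% to 49.4%), and 846, or 53.1%, already had one, against 52.1% of all protein-coding genes. With a flank of 1 kb, 37.4% of the genes with a gained peak also had a LFY K249R peak, against 32.2% of all genes. Counting gene bodies alone, 430 genes held a gained peak, of which 118, or 27.4%, also held a LFY K249R peak, against 17.5% of all genes, and 312 did not. The distance of these shares from the background thus depended on the window. The shares of all genes used as background in this paragraph were not matched for gene length. A LFY + UFO peak was present in the body of 259 of those 312 genes, or 83.0% (78.4% to 87.0%), against 34.4% of all protein-coding genes; most gained peaks in genes had a LFY + UFO partner, so these counts are not independent of the shares given above. No gene body held more than 2 gained peaks.

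Of 80 genes in 5 lists (floral organ identity, floral meristem and flowering time, meristem and boundary, auxin, and SCF ubiquitin ligase), 4 had a gained peak within 3 kb, or 5.00%, against 5.81% of all protein-coding genes. Of the 80, 57 had some LFY K249R + UFO peak in that window, 70 had a LFY + UFO peak and 58 a LFY K249R peak. Among all protein-coding genes the corresponding shares were 47.4% for LFY K249R + UFO, 75.9% for LFY + UFO and 52.1% for LFY K249R. By list, gained peaks were near 1 of 14 floral organ identity genes, 0 of 19 floral meristem and flowering time genes, 2 of 16 meristem and boundary genes, 1 of 21 auxin genes and 0 of 12 SCF genes. AP3 had none: its 4 LFY K249R + UFO peaks in the window were all retained, and LFY + UFO had 5 peaks there. LFY and UFO themselves also had only retained peaks, 2 and 1.

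The 4 listed genes differed in what the other preparations showed. CAULIFLOWER (CAL), a MADS-box gene that acts with APETALA1 in floral meristem identity, had a gained peak at chr1:9103984-9104383, centred 540 bp outside the gene and 1503 bp from the nearest LFY K249R centre. A LFY + UFO peak lay 36 bp from it. A second CAL peak, inside the gene at chr1:9102476-9102875, was retained and lay 5 bp from the LFY K249R centre and 4 bp from a LFY + UFO centre. CAL thus carried one site common to all 3 lists and one in both lists with UFO but not in the LFY K249R list. Whether LFY without UFO has a peak there is not known from these lists.

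KNAT1, a KNOX homeobox gene of the shoot meristem also known as BREVIPEDICELLUS, had no LFY K249R peak within 3 kb. Its gained peak at chr4:5149586-5149985 lay inside the gene, 6648 bp from the nearest LFY K249R centre and 9 bp from a LFY + UFO centre. CUC2, a NAC gene that sets organ boundaries, had 2 retained peaks, 6 and 14 bp from their LFY K249R centres. Its gained peak at chr5:21905157-21905556, centred 1503 bp outside the gene, lay 1466 bp from the nearest LFY + UFO centre. IAA3, an Aux/IAA repressor of the auxin response, had a gained peak at chr1:1130789-1131188, centred 1300 bp outside the gene, with the nearest LFY + UFO centre 4564 bp away and the nearest LFY K249R centre 4664 bp away. Hence the CAL and KNAT1 sites were shared with LFY + UFO, and the CUC2 and IAA3 sites were seen with LFY K249R + UFO alone.

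The members farthest from LFY K249R peaks among those shared with LFY + UFO, outside genes and within 500 bp of a gene with a symbol (29 eligible, 10 named) lay next to genes of many kinds. The peak at chr1:5078767-5079166, centred 259 bp from SDS, a cyclin-like gene of meiosis, was 25958 bp from the nearest LFY K249R centre, and its LFY + UFO partner was 193 bp away. The peak at chr3:18963555-18963954, centred 374 bp from STY1, a regulator of style development, was 22448 bp from LFY K249R and 8 bp from its LFY + UFO partner. STY1 therefore had a site that both preparations with UFO placed within a few bp of each other and that LFY K249R alone lacked over a wide stretch. The peak at chr2:15092375-15092774, centred 160 bp from BLH1, a BEL1-like homeodomain gene, was 13326 bp from LFY K249R and 26 bp from its partner. The peak at chr1:25941383-25941782, centred 46 bp from BIM2, a bHLH gene of brassinosteroid signalling, was 7845 bp from LFY K249R and 20 bp from its partner. The peak at chr1:18521848-18522247, centred 200 bp from TOR, a kinase that couples growth to nutrients, was 6535 bp from LFY K249R and 2 bp from its partner. The remaining 5 lay beside ARFB1A, NHX4 (a sodium/proton exchanger), OTP43 (a pentatricopeptide repeat protein), LCR53 and COX10 (a haem-synthesis enzyme for cytochrome oxidase), 6650 to 13619 bp from LFY K249R and 14 to 74 bp from their partners. The peak named for COX10, centred 257 bp from it, lay closer to a gene without a symbol, AT2G44510, at 5 bp.

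The corresponding members without a LFY + UFO partner (26 eligible, 5 named) lay beside XTH31, PYL4, SAE1A, CBP20 and GSTU19. The peak at chr3:16446456-16446855, centred 279 bp from XTH31, a cell-wall xyloglucan enzyme, was 14147 bp from LFY K249R and 2691 bp from the nearest LFY + UFO centre. The peak at chr2:16049696-16050095, centred 22 bp from PYL4, an abscisic acid receptor, was 11496 bp from LFY K249R and 6624 bp from LFY + UFO. The peaks beside SAE1A (a SUMO-activating enzyme subunit), CBP20 (a subunit of the nuclear cap-binding complex) and GSTU19 (a glutathione S-transferase) were 8060 to 8644 bp from LFY K249R and 2619 to 8631 bp from LFY + UFO. These sites were in the LFY K249R + UFO list alone.

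Inside genes, a rule added after the values were seen named the members farthest from LFY K249R in genes with a symbol, 6 of 147 with a LFY + UFO partner and 4 of 44 without. With a partner, the peak at chr1:19167376-19167775 in B ALPHA, a regulatory subunit of protein phosphatase 2A, lay 29908 bp from LFY K249R and 12 bp from its partner. The peak at chr1:26157877-26158276 in MYB105, a gene of lateral organ boundaries, lay 23830 bp from LFY K249R and 14 bp from its partner. The other 4 lay in CGL1, DAR3, SAP7 and SDG21, 17300 to 25817 bp from LFY K249R and 9 to 72 bp from their partners. Without a partner, the peaks lay in RLM3, UBQ9, MC6 and CGR3, 12851 to 23131 bp from LFY K249R and 3150 to 9843 bp from LFY + UFO.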

How the data were processed

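The deposited files are 3 lists of peak intervals, 1 per preparation. Per the series' design text, the authors kept peaks present in all 3 replicates for LFY + UFO and in both replicates for each mutant list. Bowtie2, SAMtools, MACS2 and the build TAIR10 are named in the submitters' processing notes. Their settings, and the use of the input DNA, are not given in the sources used here. The lists hold no counts or heights, so no depth or interval from depth could be had, and no test between conditions was possible.

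Peak centres were computed as (start + end) / 2, rounded down, and compared at a limit of 200 bp. Positions are printed 1-based. Shares have exact (Clopper-Pearson) 95% intervals and differences have Newcombe intervals. Gene names and positions came from the RefSeq TAIR10.1 table, whose nuclear chromosomes keep the TAIR10 sequence; 27444 protein-coding genes lay on chromosomes 1 to 5. Its frame was checked by displacing the peaks: on 5 of 5 chromosomes the in-gene share of LFY + UFO only peaks was higher, and that of LFY K249R peaks lower, at 0 than at every displacement of 5 kb or more.

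The members, the gene lists and the rules were chosen with earlier results of these data known. Genes were named when a listed gene had a gained peak within 3 kb. Also named were the 10 members with and the 5 without a LFY + UFO partner that lay outside genes, within 500 bp of a gene with a symbol and farthest from LFY K249R. The plan had set the 500-bp windows upstream of gene starts. For listed genes it had set a window from 3 kb upstream of the start to 1 kb downstream of the end. Since the table gives no strand, 500 bp and 3 kb were used at either end. The gained peaks of CUC2 and IAA3 lay more than 1 kb outside the gene, so whether they met the planned rule is not known. All 80 listed genes matched the table by symbol, synonym or locus; UFO and TIR1 are in 2 lists each. No genome sequence was used here, so the planned work on binding motifs, promoters and words was not run and no sequence is printed. The matching code was tested on simulated lists. Computation was done in Python 3.11.15 with scipy 1.17.1, pandas 2.3.3 and numpy 2.4.6, and plots were drawn with matplotlib 3.10.9.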

Additional observations from a re-analysis of the deposited data

How the results depend on the processing

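The number of gained peaks was 723 to 801 under limits of 100 and 80 bp and under a rule of 1 bp of overlap. The share in LFY + UFO fell to 64.2% with a limit of 80 bp for both lists, just below its interval, and stayed inside it under the other 4 alternatives. The in-gene share of gained peaks was 60.7% with genes of every biotype and 48.8% when the whole interval had to lie in the gene. The in-gene difference between gained peaks with and without a partner was 24.8 to 29.7 points over 5 alternatives, and the median offset was 19 and 20 bp over 2. The share of genes with a gained peak that lacked a LFY K249R peak rose to 62.6% with a 1-kb flank and 72.6% with gene bodies alone, since a narrower window holds fewer peaks. With 1 kb, 2 of the 80 listed genes (CAL and KNAT1) had a gained peak, in place of 4. All alternatives on gene position, on the offset and on gene windows were chosen after seeing the data. The main in-gene share, its difference by LFY + UFO partner and the main share of genes lacking a LFY K249R peak were not in the plan either.

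Other settings for motifs, words, the LFY matrix and promoters were not run, for want of sequence and strand. No paired analysis was possible because each preparation has a single merged list, and leaving out a replicate was not possible for the same reason. A site that was not bound and a site below the caller's threshold cannot be told apart in these lists.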

Other observations

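Around the longest stretch without LFY K249R peaks on each chromosome, gained sites lay mostly outside genes. Of the 64 gained peaks within 2 Mb of the middle of such a stretch, 13 were inside a protein-coding gene, or 20.3% (11.3% to 32.2%), against 58.8% (55.1% to 62.5%) of the 709 farther away. Retained peaks showed 19.1% and 58.1% in the same order. Presence in LFY + UFO at gained sites was 67.2% (54.3% to 78.4%) near and 68.7% (65.1% to 72.1%) farther away, a difference of -1.50 points (-14.1 to 9.33). For retained peaks it was 86.5% (83.9% to 88.7%) near and 90.7% (90.0% to 91.4%) farther away.

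The share of gained peaks among LFY K249R + UFO peaks ran from 2 of 76, or 2.63% (0.320% to 9.18%), at 6 to 7 Mb of chromosome 3 to 15 of 80, or 18.8% (10.9% to 29.0%), at 16 to 17 Mb of the same chromosome, over 107 bins of 1 Mb with at least 50 peaks. These are the extremes of many bins and carry no test. The densest group of gained peaks was 5 within 100 kb on chromosome 5. The bodies of 6 genes held 2 gained peaks each, and these were named after their values were seen: AT1G49100, AT3G61280, AT4G21880 and AT4G24200 held no LFY K249R peak, while CuAO1, a copper amine oxidase gene, and AT4G32640 held 1 each. Each of the 6 genes held 2 or 3 LFY + UFO peaks. In CuAO1, AT3G61280, AT4G21880 and AT4G32640, however, 1 of the 2 gained peaks had no LFY + UFO partner at 200 bp. The 2 gained peaks in CuAO1 had centres 244 bp apart, so their intervals overlapped.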
